A study of Rattus norvegicus with 5 samples.

Results

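The mature chondrocyte zone (MZ) of the mandibular condylar cartilage (MCC) was compared with femoral condylar cartilage (FCC) as the difference, MZ minus FCC, of 31042 of the 31099 probe sets, which leaves out only the array's own controls. The comparison used 2 of the 5 arrays of the study and 14213 genes, and the fibrous (FZ), proliferative (PZ) and hypertrophic (HZ) zones of the same condyle were used to check the MZ label, to show which of the 2 arrays stood apart and to set list medians beside those of MZ. All samples came from wild type Sprague-Dawley male rats aged 5 weeks that received no treatment. Cells were cut out of 7 µm frozen sections by laser capture, those of FCC from its middle and deep zones, and lysates of 30 sections were pooled for the MZ sample and 30 for the FCC sample, whose RNA was amplified before labelling. How many animals went into a pool is not stated in the sources used here. Each group was measured on 1 array, which leaves every difference without a replicate to check it, and p-values could not be had. The study also measured some genes by qRT-PCR in FCC and each MCC zone, Itgbl1 and Gdf10 among them. It reports patterns comparable to the arrays for most of these genes but not for all.

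The MCC is a secondary cartilage of the jaw that grows under a fibrous cover and whose deep chondrocytes are replaced by bone. Its precursors come from the neural crest of the first pharyngeal arch. The cartilage of the femoral condyle is part of the limb skeleton, formed from lateral plate mesoderm, and at this age it consists of hyaline cartilage over a growing epiphysis. Mature chondrocytes in either tissue make type II collagen and aggrecan, and before they are replaced by bone they enlarge, make type X collagen and mineralize their matrix.

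Values are log2 intensities of Affymetrix rat genome arrays, each given relative to the middle value of that probe set among the 5 arrays. A value of 0 is therefore the middle array of the 5 and not an absent transcript, and no expression level can be read from these values. A difference of 1 is 2-fold and a difference of 2 is 4-fold, and a negative difference is lower in MZ. The median of MZ minus FCC was 0.00 over all 31042 probe sets and 0.03 over genes. The 18 probe sets for transcripts added to every sample before hybridization averaged −0.02 in MZ and 0.50 in FCC. In the 14 for BioB, BioC and BioD, MZ minus FCC ran from −0.78 to −0.42. In the 4 for Cre it ran from −0.28 to −0.20, so the 18 do not share 1 offset. An alignment of the arrays on their mean would add 0.52 to every difference and so turn the sign of those between −0.52 and 0. Differences are given as deposited and are relative to the median of all probe sets. Among control probe sets for the ends of a transcript, the 5′ value of beta-actin minus its 3′ value was −0.10 in MZ and 1.24 in FCC, whereas the figures for GAPDH were −0.13 in MZ and −0.21 in FCC. PZ also stood out, since the 18 added transcripts averaged 0.44 there, against −0.15 in FZ and −0.03 in HZ. Its 5′ minus 3′ figure was 1.36 for GAPDH and 0.14 for beta-actin. The part of these features of the FCC and PZ arrays in the differences, and in comparisons that use PZ, was not tested. The only measure of error is the SD among a gene's own probe sets, with a median of 0.27 over 4526 genes that have 2 or more. It covers probe design only. Variation between animals, dissections, amplifications or arrays is not in it, so it does not stand for a replicate error. The label of the MZ sample was checked against 14 genes of hyaline cartilage, of which 12 were higher in MZ than in FZ, 13 were higher than in HZ and 2 were higher than in FCC. Of 6 genes of the fibrous layer, 0 were higher in MZ than in FZ. Of 8 markers of hypertrophic chondrocytes, 6 were higher in MZ than in HZ, with means of 0.87 in MZ and 0.52 in HZ, so these markers do not separate MZ from HZ in the direction of the labels.

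At a difference of at least 2, 356 probe sets were higher in MZ than in FCC (1.15% of those measured) and 412 were lower (1.33%). Aligned on the hybridization controls, 896 were higher and 260 lower. The lower side reached much further. At least 4 lower were 79 probe sets and at least 4 higher was 1. Among genes, with the mean of their probe sets, 993 were at least 1 higher (6.99%) and 674 at least 1 lower (4.74%), and at a difference of 2 there were 158 higher (1.11%) and 212 lower (1.49%). With that alignment, 2820 genes were at least 1 higher and 352 lower. Most of the gap lay on the FCC side. Of the 412 probe sets that were lower in MZ, FCC lay at least 1 above all 4 MCC arrays in 342 and MZ lay at least 1 below all other arrays in 3. Of the 356 that were higher, FCC lay at least 1 below all 4 MCC arrays in 191, and MZ lay at least 1 above all others in 12. A further pattern was shared by the deep zones, since MZ and HZ both lay at least 1 above FZ, PZ and FCC in 102 of the 356 and at least 1 below them in 59 of the 412. The 412 and 356 probe sets were picked by the difference between MZ and FCC. In addition, FZ, PZ and HZ are zones of the same condyle as MZ, so part of these counts is built in. Over the whole array, without that choice, MZ was outermost of the 5 in 24.6% of probe sets and FCC in 50.2%.

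**Figure D1:**
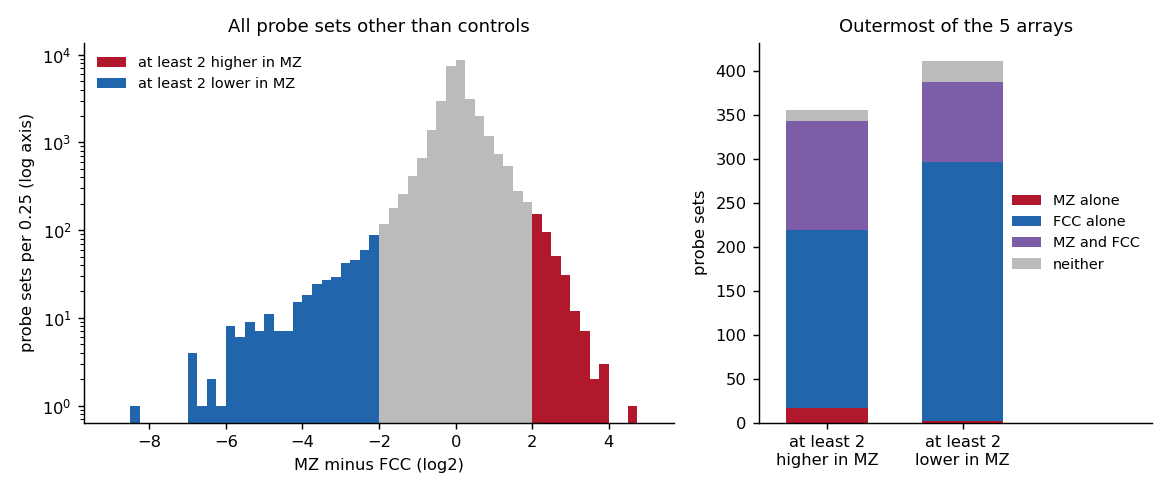
Left, MZ minus FCC on the log2 scale for the 31042 probe sets, with the number per bin of 0.25 on a log axis. Right, for the 356 probe sets higher and the 412 lower in MZ, how many have MZ alone, FCC alone, both or neither as outermost array of the 5, with FCC alone in 295 of the lower ones.

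The largest differences were on the lower side, and a homeobox gene led them. Hoxa9, which sets position along the body and limb axes, was −0.64 in MZ and between −0.63 and 0.43 in FZ, PZ and HZ, against 7.77 in FCC, a difference of −8.41 or 341-fold. Meg3, a long non-coding RNA of the imprinted Dlk1 region, was −0.61 in MZ and 5.64 in FCC as the mean of its 2 probe sets, which differed by −6.76 and −5.73. Itgbl1, a secreted integrin-like protein, was −2.91 in MZ, close to its value in HZ, against 3.84 in FCC. For Meltf, an iron-binding membrane protein, MZ was at 0.00 and FCC at 6.47. Smoc1, a matricellular calcium-binding protein, had a probe set at −0.17 in MZ and 6.11 in FCC and a second that differed by −1.71. In the 30 genes with the largest lower difference, which began at −4.77, FCC lay at least 2 above all 4 MCC arrays in 29, and MZ was the lowest array in 9.

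On the higher side the first genes were Styxl2, Ildr2, Gal, Cdh2 and Plek. Styxl2, a phosphatase-like protein of striated muscle, was 0.59 in MZ and between −1.18 and 0.35 in FZ, PZ and HZ, against −3.93 in FCC. Gal, the neuropeptide galanin, was 1.10 in MZ and 1.05 in HZ, against −2.66 in FCC. Cdh2, which encodes N-cadherin, an adhesion molecule of condensing mesenchyme, had 3 probe sets with differences from 0.03 to 3.52. Ildr2, a membrane protein of the immunoglobulin family, had 4, with differences from −0.12 to 3.99. Both therefore rest on part of their probe sets. Satb1, a chromatin organizer best known from T cells, had a pair that lay close together, at 2.84 and 3.45, with a mean of 1.04 in MZ and −2.11 in FCC. The same held for Cadm1, a cell adhesion molecule, at 2.98 and 3.07. In the 30 genes with the largest higher difference, which began at 2.84, FCC lay at least 1 below all 4 MCC arrays in 21 and MZ was the highest array in 15.

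**Figure D2:**
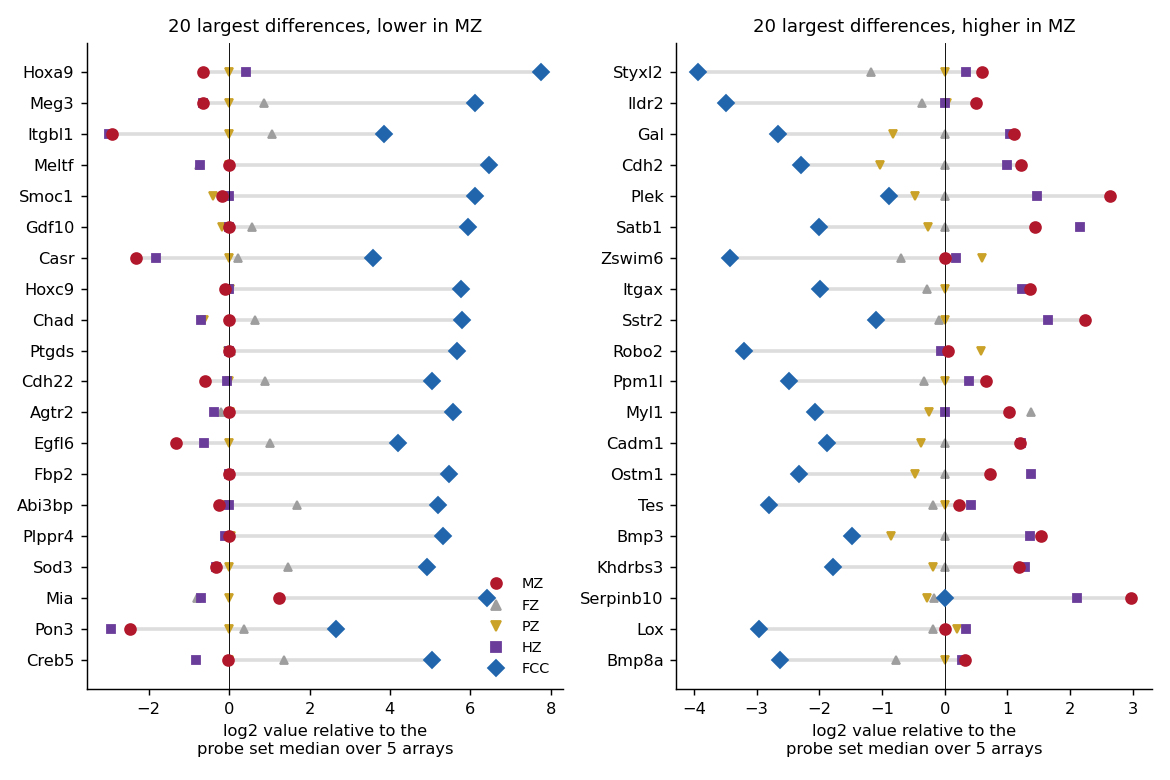
Log2 values relative to the median over the 5 arrays for the probe set with the largest difference of 20 genes lower (left) and 20 genes higher (right) in MZ than in FCC, with 1 point per array and symbols that can overlap. In Hoxa9 the MCC arrays lie between −0.64 and 0.43 and FCC at 7.77, whereas in Plek MZ at 2.63 is the outermost array.

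Genes of the hyaline cartilage matrix were lower in MZ than in FCC. Of 36 measured members of this list, 23 were at least 1 lower (63.9%, against 4.74% of all genes) and 0 were at least 1 higher, with a median of −1.58. The study names several of them, Chad, Mia, Vit, Prelp and Scrg1 included, as far lower in the MCC from these same arrays. The list was chosen with earlier results of these data known, so this share is no independent evidence. Fewer cells of a type and less RNA per cell cannot be told apart in such samples. The 5 members furthest below FCC were Chad, Mia, Vit, Prelp and Cilp2, all by more than 4. Chad, a leucine-rich protein that binds chondrocytes to collagen, was 0.00 in MZ and between −0.70 and 0.64 in the other MCC arrays, against 5.79 in FCC. Mia, a small protein secreted by chondrocytes, was 1.24 in MZ, its highest MCC value, against 6.40 in FCC. Vit, which encodes vitrin, stood at 0.00 in MZ and 5.05 in FCC. Prelp, a proteoglycan that binds collagen, was −1.17 in MZ and 3.67 in FCC, Cytl1, a cytokine-like product of chondrocytes, at 0.00 and 4.50, and Scrg1, a small secreted protein of chondrocytes, at 0.55 and 4.66. In Cnmd (chondromodulin, an inhibitor of vessel growth) and Snorc (a transmembrane proteoglycan of chondrocytes), MZ was the highest MCC array and still far from FCC. Cnmd was 2.08 in MZ and between −2.06 and 0.00 in FZ, PZ and HZ, against 5.46 in FCC, and Snorc was 1.81 in MZ, against 5.13 in FCC.

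Several structural proteins of cartilage are on the list. Acan, the core protein of aggrecan, was −0.44 in MZ and 0.86 in FCC, with both probe sets under −1. Hapln1, the link protein that holds aggrecan on hyaluronan, differed by −2.51, with 3 probe sets from −2.98 to −1.92. Comp, which binds collagen fibrils, differed by −1.31 and Matn1, a matrilin of the matrix network, by −1.61. The type IX collagen genes Col9a1, Col9a2 and Col9a3, whose product coats the type II fibril, differed by −1.47, −1.03 and −0.64. For Col2a1, the main collagen of cartilage, the 3 probe sets ran from −1.06 to 2.63, so that its mean of 0.40 gives no direction. Col11a1, of the fibril core, was divided in the same way, from −1.09 to 1.88. The 4 members above 0 were Frzb, an antagonist of Wnt, at 0.47, and Col2a1, Cd24 and Col11a1. The list had medians against FCC of −1.58 in MZ, −2.44 in FZ, −1.63 in PZ and −3.85 in HZ, comparisons that all use the same FCC array. Between the deep zones, the median was 0.92 higher in MZ than in HZ.

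Enzymes of glycosaminoglycan chains, which give aggrecan its charge, were at least 1 lower in MZ in 5 of 37 (13.5%, against 4.74% of all genes). At least 1 higher were 2 (5.41%), near the 6.99% of all genes. The median was −0.17, or 0.35 when aligned on the hybridization controls. Csgalnact1, which starts chondroitin sulfate chains, was at −2.39 and Csgalnact2 at −1.19, Has2, a hyaluronan synthase, at −1.58 and Sulf2, a sulfatase of heparan sulfate, at −2.86. Arsb, a lysosomal sulfatase that degrades such chains, was at 2.06 and Gusb, a lysosomal glucuronidase, at 1.47. Among 13 small leucine-rich proteoglycans and relatives, 5 were at least 1 lower (38.5%) and 1 was higher. Besides Chad these were Prelp (−4.83), Ecm2 (−4.25), Fmod (−2.31), which binds collagen fibrils, and Ogn, at −1.71 with 4 probe sets from −1.82 to −1.52. The common proteoglycans of fibrous tissue did not reach −1, with Bgn at −0.67, Lum at 0.33 and Dcn at 0.70. Podnl1 stood at 1.52.

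Among 43 genes of tendon and fibrous connective tissue, 14 were at least 1 lower in MZ (32.6%, against 4.74% of all genes). At least 1 higher were 4 (9.30%), near the 6.99% of all genes. Their median of −0.52 becomes 0.00 when the arrays are aligned on the hybridization controls, so the list as a whole has no direction that holds under both scalings. The study names 5 of its members as low in MZ from these samples, Itgbl1, Col14a1 and Fibin among them, and without these 9 of 38 (23.7%) were at least 1 lower. Several of the lower members were high in the fibrous zone as well. Col14a1, a collagen on the surface of fibrils, was −2.27 in MZ, 2.28 in FZ and −2.97 in HZ, against 1.69 in FCC, and Fibin, a secreted protein, was −2.28 in MZ, 0.90 in FZ and −2.78 in HZ, against 1.57 in FCC. Mfap4, of elastic fibres, differed by −3.59, Fbn1, which encodes fibrillin, by −1.79 and Eln, elastin, by −1.06. The higher members were Lox, which cross-links collagen, with probe sets at 1.75 and 2.97, Postn (1.66), a matrix protein of periosteum, Col5a1 (1.29) and Tnc (1.28). For Lox all 4 MCC arrays were alike, between −0.09 and 0.25, and FCC was at −2.22. Of 12 genes of synovium and perichondrium, 3 were at least 1 lower (25%, against 4.74% of all genes) and 0 higher, with Nt5e, an ectonucleotidase, at −2.77. Above 0 were 6 and below it 6, with a median of −0.18, or 0.35 when aligned on the hybridization controls.

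Among genes that mark position in the body, FCC was often the array that stood apart. Hox genes are switched on in order along the trunk and limbs and are known to be silent in the neural crest of the first arch. Of 22 measured, 10 were at least 1 lower in MZ than in FCC (45.5%, against 4.74% of all genes), 0 were at least 1 higher, and the median was −0.59, or −0.07 when aligned on the hybridization controls. Hoxc9, which the study also names as far lower in the MCC from these same arrays, was −0.11 in MZ, against 5.77 in FCC. Hoxa5 was 0.27 in MZ and between −0.11 and 0.00 in FZ, PZ and HZ, against 5.05 in FCC. Hoxc5 was at 0.00 in MZ and 4.79 in FCC, Hoxa10 at 0.00 and 4.75 and Hoxc8 at −0.03 and 2.11, with the 4 MCC arrays close together in each. Hoxd8 was the exception within the condyle, at −0.87 in MZ and −0.94 in HZ but 0.00 in FZ and 0.21 in PZ, against 2.72 in FCC. Hoxc4 had a probe set at −3.86 and another at 0.03. No member of the Hoxb cluster reached −1, the lowest being Hoxb4 at −0.53, and Hoxa11, Hoxd9, Hoxd10 and Hoxd11 lay between −0.49 and −0.03.

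Other patterning factors fell on both sides. Of 15 limb patterning genes, 4 were at least 1 lower in MZ (26.7%) and 0 higher. Tbx18, a T-box factor of mesenchyme, was −0.21 in MZ and 3.95 in FCC, and Tbx4, the T-box factor of the hindlimb, was 0.00 in MZ and 2.70 in FCC. Meis2 and Meis1, homeobox partners of Hox proteins, were both at 0.00 in MZ and stood at 3.61 and 2.57 in FCC. Tbx5, the forelimb counterpart of Tbx4, differed by 0.00, and Pitx1, a hindlimb factor that the jaw also uses, by −0.11. Of 24 craniofacial patterning genes, 5 were at least 1 higher in MZ (20.8%, against 6.99% of all genes) and 1, Osr2, was lower at −1.82. Dlx1, a homeobox factor of the pharyngeal arches, was −0.12 in MZ and between 0.00 and 0.97 in FZ, PZ and HZ, against −2.88 in FCC. Dlx3 was 1.10 in MZ and 1.21 in HZ but −0.19 in PZ and 0.00 in FZ, against −1.13 in FCC. The others were Bmp4 (1.57), Pax9 (1.42), a factor of tooth and jaw, and Dlx5 (1.15). Msx1, Msx2, Hand2 and Alx1 lay between −0.28 and 0.20.

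**Figure D3:**
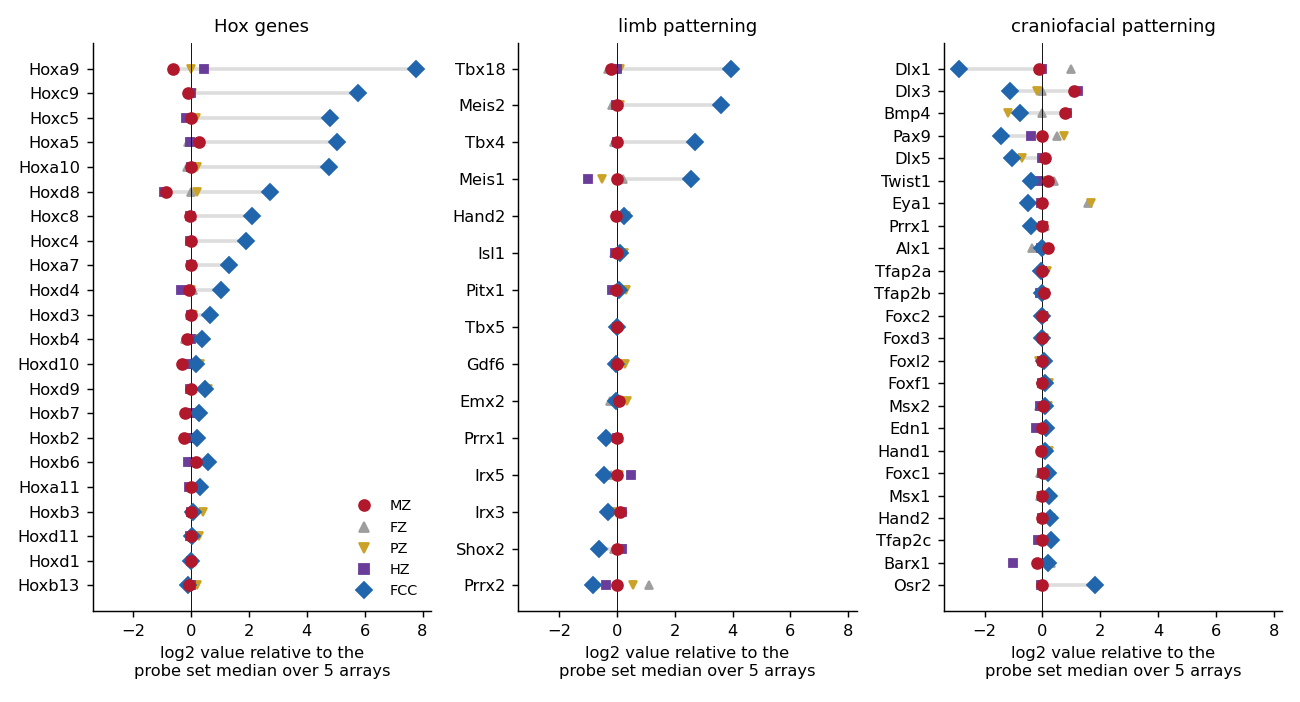
Log2 values relative to the median over the 5 arrays for 22 Hox genes, 15 limb and 24 craniofacial patterning genes, with the mean of a gene's probe sets and 1 point per array. FCC lies to the right of the 4 MCC arrays for Hoxa9 to Hoxd4 and for Tbx18, Meis2, Tbx4 and Meis1, and to their left for Dlx1.

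In growth plates, Indian hedgehog from prehypertrophic cells and PTHrP from younger cells form a loop that holds back hypertrophy. The ligand Ihh differed by −0.58, with 1.23 in MZ, the highest MCC value, and 1.81 in FCC. Of 15 genes in all, 5 were at least 1 lower (33.3%, against 4.74% of all genes) and 1 higher. Boc, a co-receptor, was −0.84 in MZ and 1.67 in FCC, Hhip, which binds and limits the ligand, was −0.67 in MZ and 1.42 in FCC, and Gli2, a transcription factor of the pathway, was 0.00 in MZ and 1.63 in FCC. Smo, the signal transducer, had a probe set at −2.34 and another at 0.00. Casr, the calcium-sensing receptor, was −2.33 in MZ, its lowest value, and 3.59 in FCC. Pth1r, the receptor of PTHrP, was higher on average, with probe sets at 0.28 and 1.73.

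Ligands and antagonists of the TGF-beta and BMP family, which drive chondrocyte differentiation, lay on both sides. Of 51, 8 were at least 1 higher in MZ (15.7%, against 6.99% of all genes) and 11 lower (21.6%, against 4.74%), with a median of 0.03. Gdf10, a ligand related to Bmp3, was 0.00 in MZ and between −0.17 and 0.57 in FZ, PZ and HZ, against 5.94 in FCC. Bmp3 itself ran the other way, at 1.54 in MZ and 1.36 in HZ, against −1.48 in FCC, and Bmp8a was 0.32 in MZ, against −2.62 in FCC. The BMP antagonists Chrdl2 (−2.23), Chrd (−1.47) and Chrdl1 (−1.22) and the ligands Bmp7 (−1.34) and Bmp5 (−1.23, probe sets at −2.13 and −0.33) were lower, as was Ltbp4 (−3.22), which holds latent TGF-beta in the matrix. Higher were Id3 (1.84), a target gene of BMP, Bambi (1.68), a decoy receptor, and Grem1 (1.33), an antagonist. None of Smad1, Smad2, Smad3, Smad4 and Smad5, the transducers, reached 1 in either direction, with values from −0.28 to 0.49.

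In the Wnt pathway 7 of 45 genes were at least 1 higher in MZ (15.6%) and 5 lower (11.1%). Higher were the ligands Wnt4, at 1.01 in MZ and −0.89 in FCC, and Wnt5b (1.37), the receptor Lrp4 (2.17), which binds sclerostin, and Ccn4 (1.93), a secreted target of the pathway. Lower were Ccn6, at 0.00 in MZ and 4.22 in FCC, the receptor Fzd8 (−2.62) and the secreted inhibitors Wif1 (−1.58) and Sfrp5 (−1.40). Ctnnb1, beta-catenin, differed by 0.10 on average, with 4 probe sets from −0.59 to 0.79. For FGF and VEGF signalling the figures were 5 of 29 higher and 2 lower. The higher members (17.2%, against 6.99% of all genes) were the inhibitors Spry1 at 1.70, Dusp6 at 1.45 (3 probe sets from 1.32 to 1.60) and Spry4 at 1.31 and the co-receptors Nrp1 (1.56, probe sets at 0.93 and 2.19) and Nrp2 (1.28, probe sets at 0.00 and 2.56). Spry2, of the same family as Spry1, differed by −0.07. Fgfrl1, an FGF receptor without a kinase domain, was 0.00 in MZ and 2.75 in FCC. Fgfr3, the brake on chondrocyte division, differed by −0.01. Of 22 genes of the insulin-like growth factor system, 5 were at least 1 lower (22.7%) and 1 higher, Igfbp3 (probe sets at 0.91 and 2.18). The lower ones included Igf2, whose 4 probe sets ran from −4.40 to 0.00, Ghr, the growth hormone receptor (−2.98 and −0.01), Pappa2, a protease of the binding proteins (−2.80 and −0.31), and Igfbp5, with 5 probe sets from −2.02 to −0.30. Igf1 and its receptor Igf1r differed by 0.05 and 0.04 on average, with the probe sets of Igf1 from −0.44 to 0.66.

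Genes of hypertrophy and mineral lay on the higher side in MZ. Of 28, 8 were at least 1 higher (28.6%, against 6.99% of all genes) and 3 lower (10.7%), with a median of 0.59, or 1.11 when aligned on the hybridization controls. Alpl, the phosphatase that frees phosphate for mineral, was 1.47 in MZ, the highest of the 5 arrays, against −0.65 in FCC. Panx3, a channel protein of prehypertrophic cells, was 1.43 in MZ, against −0.47 in FCC, and Phex, a peptidase of phosphate balance, was 0.59 in MZ and 1.68 in HZ, against −1.90 in FCC. Spp1 (osteopontin) differed by 1.54 and Mef2c, a transcription factor that starts hypertrophy, by 1.71, with probe sets at 1.25 and 2.17. Col10a1, the collagen of hypertrophic cartilage, was 0.62 in MZ and 0.37 in HZ, against 0.00 in FCC, and FZ and PZ were at −2.73 and −1.61. Mmp13, the collagenase of hypertrophic cells, and Ibsp, a bone matrix protein, differed by 0.64 and 0.92. The 3 lower members were Scin, an actin-severing protein of hypertrophic cells, at −2.48, and the inhibitors of mineral Mgp (−1.44) and Ankh (−1.05). Of 17 osteoblast and osteocyte genes, 6 of which are also in this list, 5 were at least 1 higher (29.4%) and 0 lower. Genes of blood cells and osteoclasts, given next, were higher in the same array, and their part in these differences was not tested.

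Osteoclasts and their precursors resorb cartilage at the bone front. Of 12 osteoclast genes, 6 were at least 1 higher in MZ (50.0%, against 6.99% of all genes) and 0 lower, with a median of 0.92. The median in HZ against the same FCC array was 1.23. Acp5, the tartrate-resistant phosphatase, was 0.73 in MZ and 0.81 in HZ, against −1.42 in FCC. Mmp9, a gelatinase, was 1.21 in MZ and −1.09 in FCC (probe sets at 1.83 and 2.76), and Ostm1, a subunit of a chloride transporter of osteoclasts and lysosomes, was 0.72 in MZ and −2.33 in FCC. Itgb3 (2.13), Ctsk (1.28) and Car2 (1.03) were also higher, whereas Nfatc1, the master regulator, stood at −0.89 and Tnfrsf11a, the receptor RANK, at −0.04. Among 41 matrix proteases and inhibitors, 12 were at least 1 higher (29.3%, against 6.99% of all genes) and 5 lower (12.2%, against 4.74%). Mmp12, the macrophage elastase, was 1.54 in MZ and 0.00 in HZ, against −1.33 in FCC. Adamts7 (2.49), the aggrecanases Adamts4 (1.67) and Adamts5 (1.19) and Mmp14 (1.21, probe sets at 0.39 and 2.03) were higher, and Mmp3, stromelysin, was −0.58 in MZ against 2.37 in FCC. Of the inhibitors, Timp4 differed by −2.24 and Timp1, at 0.34 in MZ and −1.07 in FCC, lay on the higher side.

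Many genes of blood cells were higher in MZ. The 6 lists of erythroid, megakaryocyte, neutrophil, macrophage, lymphocyte and pan-leukocyte genes hold 153 measured genes, of which 74 (48.4%, against 6.99% of all genes) were at least 1 higher and 1, Plcg2 at −1.18, was at least 1 lower, with a median of 0.99. The other members did not reach 1 in either direction. These lists hold 1.08% of all genes and 18.4% (29 of 158) of those at least 2 higher. In the megakaryocyte and platelet list 13 of 19 (68.4%) were at least 1 higher, with a median of 1.51. The study names 4 of its members (Mmrn1, Pf4, Plek and Treml1) as high in MZ from these same samples, so they are no independent evidence. Without them 9 of 15 (60%) were at least 1 higher, with a median of 1.27. The other members were also chosen with earlier results of these data known, so this share is no independent evidence either. Plek, which encodes the platelet protein pleckstrin, was 2.63 in MZ and 1.47 in HZ, against −0.89 in FCC, and Pf4, a chemokine stored in platelets, was 2.51 in MZ, the highest array, against −0.37 in FCC. Mmrn1, a protein of platelet granules, was 2.67 in MZ, 0.41 in HZ and 0.00 in FCC, and Tubb1, the tubulin of platelets, was 2.37 in MZ, 0.33 in HZ and 0.00 in FCC. In these last the FCC array is the middle of the 5 and MZ stands alone. Treml1 and Clec1b, receptors on platelets, differed by 2.04 and 1.80. Ppbp and Gp9, 2 other platelet genes, differed by 0.11 and 0.57.

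In the pan-leukocyte list 25 of 38 (65.8%, against 6.99% of all genes) were at least 1 higher, with a median of 1.44. Against the same FCC array the median was 1.75 in HZ, 0.74 in FZ and 0.13 in PZ. The HZ median was also above that of MZ for macrophage (1.11 and 1.04) and lymphocyte genes (1.11 and 0.79). It was below that of MZ for megakaryocyte (0.45 and 1.51) and neutrophil genes (0.16 and 0.51). Lcp1, an actin-bundling protein of leukocytes, was 1.17 in MZ and 1.51 in HZ, against −1.45 in FCC, and Cd53, a leukocyte tetraspanin, was 1.38 in MZ and 1.34 in HZ, against −0.99 in FCC. Ptprc, the common leukocyte antigen CD45, had probe sets at 0.11 and 2.54. Of 24 macrophage genes, 12 were at least 1 higher (50.0%), with the lysosomal protein Cd68 at 2.52 and Csf1r, the receptor of the macrophage growth factor, at 2.35. Of 27 lymphocyte genes, 13 were at least 1 higher (48.1%). Of the B cell genes, Ms4a1 (CD20) was at 2.73, Pou2af1 at 2.49 and the light chain gene Iglc1 at 2.91, whereas Cd79b, of the B cell receptor, was at 0.05 and Cd22 at −0.01. The T cell genes Cd3e, Cd4 and Cd8a lay between −0.10 and 0.10, whereas Cd3g was at 2.35 and Lat, an adaptor of T cell signalling, at 2.29. Of 26 red cell genes, with a median of 0.70 in MZ and 1.16 in HZ against the same FCC array, 8 lay at least 1 above FCC in MZ (30.8%). Car1, a red cell carbonic anhydrase, was 1.73 in MZ and 3.13 in HZ, against 0.00 in FCC, and Klf1, a transcription factor of their precursors, was 1.45 in MZ and 2.65 in HZ, against 0.00 in FCC. The globin gene Hbb differed by 0.01 and Alas2, an erythroid enzyme that begins haem synthesis, by 0.44. Of 21 neutrophil genes, 5 were at least 1 higher (23.8%) and 5 lay below 0, with Serpinb10, a protease inhibitor of marrow cells that the study also names, at 2.97 in MZ and 2.12 in HZ, against 0.00 in FCC.

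**Figure D4:**
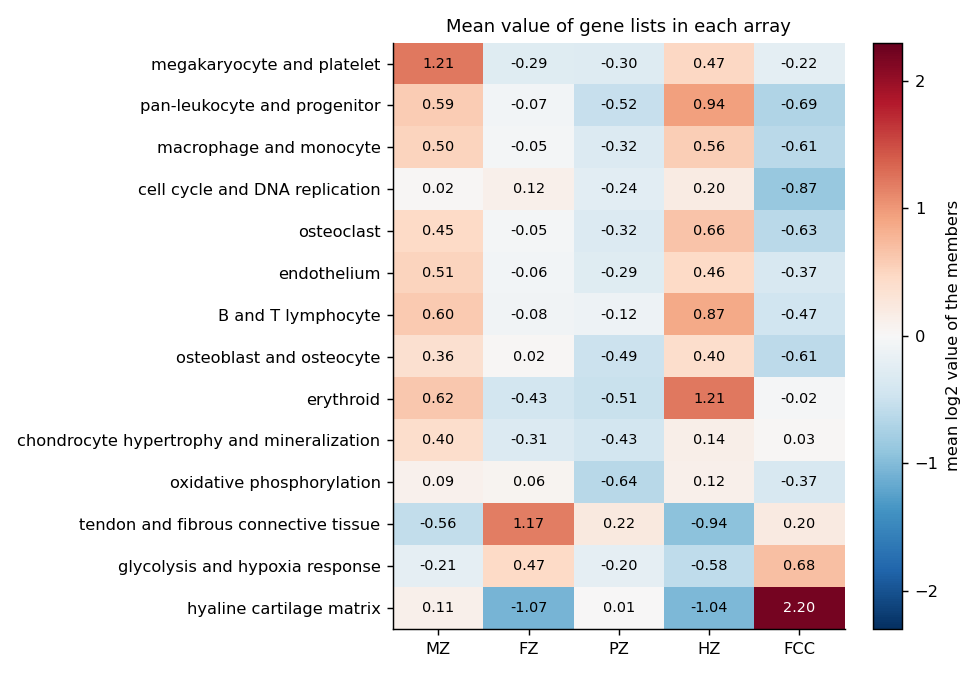
Mean log2 value of the members of 14 gene lists in each array, relative to the probe set's median of 5 arrays, with MZ at the left and FCC at the right. The megakaryocyte list is highest in MZ, whereas the erythroid list is highest in HZ and the hyaline cartilage list is highest in FCC.

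Many vessel and immune genes were higher in the same array. Of 32 endothelial genes, 15 were at least 1 higher in MZ (46.9%) and 1 lower, with a median of 0.87. The median in HZ against the same FCC array was 0.81. Ecscr, a sialomucin of endothelial cells, was 0.39 in MZ and −1.84 in FCC, Sox18, a transcription factor of vessels, was 0.72 in MZ and −0.96 in FCC, and Eng, a co-receptor of TGF-beta, was 0.11 in MZ and −1.54 in FCC. The lower member was Erg, with probe sets at −2.02 and −0.20, a transcription factor that chondrocytes of joints also make. The general marker Pecam1 differed by 0.71, and Kdr, a VEGF receptor, had probe sets at −0.11 and 1.42. All 16 genes of MHC class II and antigen processing lay above 0, and 7 were at least 1 higher (43.8%), with Cd74, the invariant chain, at 1.44. Their median against FCC was 0.82 in MZ and 0.92 in HZ. Of 37 genes of leukocyte extravasation, 7 of them shared with the pan-leukocyte list, 13 were at least 1 higher (35.1%) and 1 lower, among the higher Itgal (2.02), an integrin of leukocytes, Rac2 (2.27) and Ezr (1.69). The adhesion molecules Icam1 and Vcam1 differed by 0.21 and 0.33. Of 15 smooth muscle and pericyte genes, 2 were higher (13.3%, against 6.99% of all genes) and 1 lower (6.67%, against 4.74%).

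Many genes of cell division were higher in MZ. Of 53, 24 were at least 1 higher (45.3%, against 6.99% of all genes) and 0 were at least 1 lower, with a median of 0.94. Ccna2, a cyclin of S phase and mitosis, was 0.00 in MZ and between −0.12 and 0.48 in FZ, PZ and HZ, against −1.91 in FCC. Aurkb, a mitotic kinase, was 0.00 in MZ, against −1.54 in FCC, and Top2a, a topoisomerase of dividing cells, was 0.00 in MZ, against −1.33 in FCC. Mki67, the marker Ki-67, was 0.00 in MZ, FZ and PZ and 0.51 in HZ, against −1.14 in FCC. In each, MZ was near the other MCC arrays and FCC was the low array. The list had medians against FCC of 0.94 in MZ, 1.07 in FZ, 0.74 in PZ and 1.17 in HZ. Ccne1, a cyclin of the G1 to S transition, was 0.35 in MZ and 1.06 in HZ, against −1.29 in FCC. The lowest member was Cdkn1c, a cell cycle inhibitor of maturing chondrocytes, at −0.86. Dividing blood precursors carry these transcripts too, and the part of the blood cell genes above was not tested.

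Genes of glycolysis and of the response to low oxygen, by which chondrocytes live without vessels, were lower in MZ. Of 36, 15 were at least 1 lower (41.7%, against 4.74% of all genes), 0 were at least 1 higher, and 1, the glucose transporter Slc2a3, lay above 0 (probe sets at 0.00 and 1.46). The median was −0.77, or −0.25 when aligned on the hybridization controls. Egln3, a prolyl hydroxylase that marks HIF for decay, was 0.00 in MZ and 2.11 in FZ, against 2.78 in FCC. Bnip3, which removes mitochondria, was −0.90 in MZ and −1.76 in HZ, against 1.66 in FCC. Slc2a1, the glucose transporter GLUT1, was −0.29 in MZ and −0.98 in HZ, against 1.68 in FCC. Higd1a, a mitochondrial protein induced by low oxygen, had probe sets at −2.56 and −1.15. Hif1a, the oxygen-regulated factor itself, was 0.17 in MZ and 1.43 in FCC. Of 14 glycolytic enzymes in the list, 5 were at least 1 lower, with a median of −0.68 and a range from −1.25 for Aldoc to −0.01 for Hk2. HZ had a median of −0.93 against the same FCC array, PZ −0.81 and FZ −0.16. Subunits of oxidative phosphorylation stood on the other side by a small margin, with 62 of 67 above 0, against 52.7% of all genes. Their median was 0.41, or 0.94 when so aligned. At least 1 higher were 2 (2.99%), under the 6.99% of all genes. The larger of these was Atp5f1d, a subunit of ATP synthase, at 1.26. Of the ribosomal proteins, 0 of 42 were at least 1 apart, with a median of −0.02, or 0.50 when so aligned.

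The factor HIF binds a short core, ACGTG or GCGTG, which reads CACGT or CACGC on the other strand. Of the 36 genes, 32 have a promoter window in the RefSeq table (build GRCr8, 250 bases before to 50 after the start of the gene), and 22 of these (68.8%) hold the core on either strand, against 41.6% of all 33469 windows and 60.0% of 60 genes of oxidative phosphorylation. List members were counted with 1 window per gene and the 33469 with every window, so these shares are not of like sets. Among the 15 genes at least 1 lower, 11 hold the core. The windows of 3 members with large differences are shown because they hold several copies, with the core in capitals. That of Bnip3 is chr1:203154913-203155212 on the minus strand, that of Slc2a1 chr5:138002272-138002571 on the plus strand and that of Higd1a chr8:130400839-130401138 on the minus strand, each written 5′ to 3′ in the direction of the gene. Overlapping matches on the 2 strands run together, as in the CACGTG of Bnip3.
Bnip3: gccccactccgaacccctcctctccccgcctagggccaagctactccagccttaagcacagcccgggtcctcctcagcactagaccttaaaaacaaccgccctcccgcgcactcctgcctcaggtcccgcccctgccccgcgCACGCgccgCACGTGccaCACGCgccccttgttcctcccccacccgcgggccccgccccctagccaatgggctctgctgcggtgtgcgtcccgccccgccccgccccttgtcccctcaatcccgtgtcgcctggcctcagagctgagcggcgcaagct
Slc2a1: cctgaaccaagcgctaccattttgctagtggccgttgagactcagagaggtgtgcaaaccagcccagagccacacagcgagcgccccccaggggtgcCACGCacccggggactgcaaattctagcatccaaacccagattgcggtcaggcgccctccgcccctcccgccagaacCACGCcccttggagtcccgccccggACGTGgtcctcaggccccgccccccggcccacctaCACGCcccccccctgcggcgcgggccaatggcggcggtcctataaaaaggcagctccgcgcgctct
Higd1a: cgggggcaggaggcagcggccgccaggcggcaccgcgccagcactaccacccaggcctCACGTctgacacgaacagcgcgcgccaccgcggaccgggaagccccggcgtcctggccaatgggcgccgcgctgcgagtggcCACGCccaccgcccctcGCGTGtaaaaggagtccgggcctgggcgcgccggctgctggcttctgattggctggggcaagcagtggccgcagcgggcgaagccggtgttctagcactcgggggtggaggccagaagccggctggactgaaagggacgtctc
The window of Egln3 holds no match. A match is a run of letters in this window and was not tested as a binding site. The window of Clec1b (chr4:164533859-164534158 on the plus strand) is shown for the platelet genes. It holds AGATAA, the motif of GATA factors, which reads TTATCT on the other strand, whereas the windows of Mmrn1, Tubb1 and Treml1 do not. This motif is in 3 of 12 windows of the megakaryocyte list (25%), 6 of 19 of the erythroid list (31.6%) and 11.6% of all windows.
Clec1b: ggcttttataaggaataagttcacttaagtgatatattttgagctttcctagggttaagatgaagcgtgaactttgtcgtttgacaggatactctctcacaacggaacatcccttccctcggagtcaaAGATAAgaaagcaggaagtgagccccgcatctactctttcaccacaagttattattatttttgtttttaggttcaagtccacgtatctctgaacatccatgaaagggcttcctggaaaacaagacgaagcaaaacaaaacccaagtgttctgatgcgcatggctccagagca

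Few genes stood apart in MZ itself. MZ lay at least 1 above all other arrays in 31 probe sets, of 21 named genes, and at least 1 below them in 5, of 4 named genes, against 745 and 630 probe sets for FCC. Of the 21 genes, 8 belong to the megakaryocyte list, and 4 of these 8 are the members the study names as high in MZ. Besides Mmrn1 and Tubb1, the 8 include Alox12, the platelet lipoxygenase, at 1.63 in MZ and between −0.52 and 0.12 in the other 4 arrays, and Itga2b, the platelet integrin, at 1.15 in MZ and between −0.20 and 0.00 elsewhere. Outside that list, Gcsam, a signalling protein of germinal centre B cells, was 2.04 in MZ and −0.43 in FCC. Serpinb2, a protease inhibitor of macrophages, was 1.48 in MZ and 0.06 in FCC, Pla2g2a, a secreted phospholipase, was 1.94 in MZ and −0.83 in FCC, and Bpifa2, a secretory protein of salivary gland, was 1.48 in MZ and −0.08 in FCC. The genes lowest in MZ alone were Nptx1, a secreted pentraxin, at −1.24 in MZ and 2.39 in FCC, Arxes1, at −1.64 in MZ and 3.30 in FCC, and Mfap5, of elastic fibres, at −1.43 in MZ, 3.04 in FZ and 0.00 in FCC. The fourth, Septin6, had probe sets at −1.32 and 1.99.

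For genes with several probe sets, the agreement of the probe sets on the same arrays can be described. Of 193 such genes that were at least 1 higher, every probe set was above 0.5 in 135, and of 126 that were at least 1 lower, every probe set was under −0.5 in 77. These genes were picked by the mean of the same probe sets, so part of this agreement is built in. The probe sets also share the same samples, so their agreement does not check the difference between samples. The lower genes whose least different probe set was still furthest from 0 were Meg3, Chadl, Igsf1, Fibin and Col14a1. Chadl, a relative of chondroadherin, had both probe sets near −4 (−4.03 and −3.93), with 0.09 in MZ and 4.07 in FCC. Igsf1, a membrane protein of the pituitary and other tissues, differed by −4.14. Adgrg6, an adhesion receptor of cartilage and nerve sheath, and Ace, the angiotensin-converting enzyme, differed by −3.38 and −3.05. On the higher side, those after Cadm1 and Satb1 included Slc9b2, a sodium-proton exchanger of osteoclasts, at 2.54 and 2.58, Rcan2, a regulator of calcineurin, at 2.53 and 2.68, and Ctsc, a protease that activates granule enzymes, at 2.20 and 2.79. Fyn, a Src family kinase, was at 1.95 and 1.97. In 4 genes, Septin6, Col11a1, Col2a1 and Enpep, probe sets lay at least 1 from 0 in both directions.

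**Figure D5:**
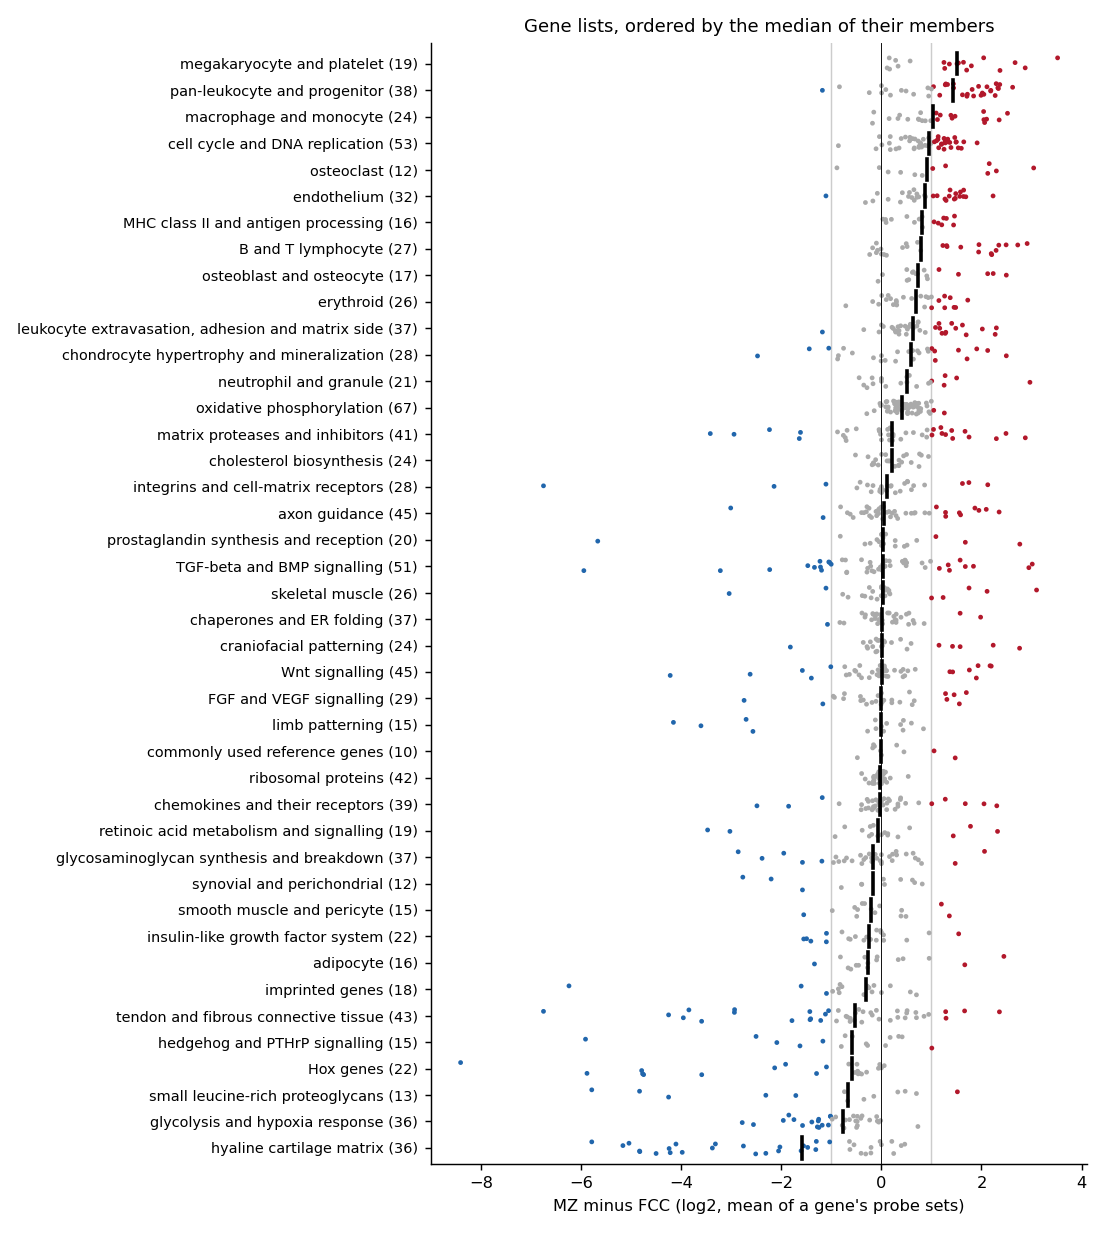
MZ minus FCC of each member of 42 gene lists on the log2 scale, with the number measured in brackets, 1 point per gene, a bar at the list's median and colour for members at least 1 higher or lower. The megakaryocyte (1.51) and pan-leukocyte (1.44) medians are the highest here, in an order that turns with another choice of probe sets, and the hyaline cartilage median (−1.58) is the lowest.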

How the data were processed

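The deposited values are log2 values that the authors made with RMA, which equalizes the arrays by quantile normalization, after a background correction described under MAS5, and from each probe set its median among the 5 arrays was then subtracted. They hold no level, no signal over background and no replicate, so the number of arrays limits precision. Of 31099 probe sets, 57 controls were set aside and none was filtered. Differences were computed in pandas 2.3.3 with numpy 2.4.6 (Python 3.11.15). Symbols came from the platform annotation, updated through RefSeq, for 20826 probe sets with 1 gene. A further 436 carry several genes and 9780 are unnamed here. Genes were named by rule: per direction the 30 with the largest difference of any probe set, the 10 whose least different of several probe sets was furthest from 0 and the 10 in which MZ lay furthest outside the other arrays, the 6 whose probe sets disagreed most, and members of the 42 lists. Members and lists were chosen with earlier results of these data known. The functions were tested on simulated data. Alternatives were scaling, thresholds and choice of probe sets.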

Additional observations from a re-analysis of the deposited data

How the results depend on the processing

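No paired analysis was possible because each group has 1 array, and for the same reason no replicate could be left out. Aligning the arrays on the hybridization controls gave 896 probe sets at least 2 higher and 260 lower in MZ (356 and 412 as deposited) and 2820 genes at least 1 higher and 352 lower (993 and 674). It brought the median of the tendon list, −0.52 as deposited, to 0.0024, and the medians of 10 further lists that lay between −0.32 and −0.01 above 0. A threshold of 1 for probe sets gave 2126 higher and 1385 lower, 1.4 gave 1043 and 792, and 3 gave 25 and 177. For genes, 1.4 gave 487 and 401, and 2 gave 158 and 212. Hoxc4 (0.033), Igf2 (0.0035) and Ildr2 (−0.12) turned sign at their least different probe set. The other changes follow from the thresholds and the shift themselves. Centring each array, plain probe sets only, probe sets with 1 gene and other summaries per gene left these counts within 1.5 times. With the probe set of the largest SD, the medians of 6 of 42 lists moved, and of 0 with the median of probe sets. The SD between probe sets was 0.28 with plain probe sets only, an alternative chosen after seeing the data, as was leaving out the genes the study names, which took the megakaryocyte median to 1.27. The pan-leukocyte median lay above the megakaryocyte one with plain probe sets (1.58 and 1.54), the probe set of the largest SD (1.77 and 1.54) and the median of probe sets (1.66 and 1.51). Signal over background is unknown, so transcripts near background were not set apart.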

Other observations

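Genes of axon guidance, whose ligands and receptors also steer vessels and bone cells, were mostly on the higher side where they differed. Of 45, 9 lay at least 1 above FCC in MZ (20%, against 6.99% of all genes) and 2 were lower. Slit3, a secreted guidance ligand, was 0.84 in MZ and 0.83 in HZ, against −1.51 in FCC. Its receptor Robo2 had probe sets from 0.54 to 3.26, with a mean of 0.11 in MZ and −1.99 in FCC. The semaphorins Sema3b (1.95), Sema4d (1.87) and Sema6d (1.29) were higher, whereas Sema3e was −0.43 in MZ and 2.59 in FCC. Among 20 genes of prostaglandins, Ptgds, the synthase of prostaglandin D2 in brain and other tissues, was at 0.00 in MZ and 5.67 in FCC, with the other MCC arrays between −0.04 and 0.05. Ptgs2, the inducible cyclooxygenase, was 0.98 in MZ and 1.15 in HZ, against −0.70 in FCC.

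Of 19 genes of retinoic acid metabolism and signalling, 3 were at least 1 higher (15.8%) and 2 lower (10.5%). The shares over all genes were 6.99% and 4.74%. Rbp4, the carrier of retinol, was −0.40 in MZ and 3.07 in FCC. Crabp1, a binding protein of retinoic acid, was 0.00 in MZ and 4.89 in FZ, against −2.32 in FCC. Of 28 integrins and matrix receptors, 3 were higher (10.7%) and 3 lower (10.7%), with Cd44, the hyaluronan receptor, at 1.62 and Sdc4, a syndecan, at −2.15. Of 18 imprinted genes, 0 were at least 1 higher and 3 lower (16.7%), among them Ndn (necdin) at −1.60 and Meg3. Of 39 chemokines and receptors, 5 were higher (12.8%) and 3 lower (7.69%), with Ccr1, a receptor of myeloid cells, at 2.31 and Cxcl13, a chemokine of B cells, at −2.49. Of 24 genes of cholesterol synthesis, 0 were at least 1 apart, with a median of 0.22 in MZ and 1.04 in FZ against the same FCC array.

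Among genes of other tissues, skeletal muscle was divided, with 5 of 26 at least 1 higher (19.2%) and 2 lower (7.69%). The shares over all genes were 6.99% and 4.74%. Myl1, a fast muscle myosin light chain, was 1.03 in MZ and 1.38 in FZ, against −2.07 in FCC, whereas Tnni2, fast troponin I, was 1.85 in MZ and 4.89 in FCC. Of 16 adipocyte genes, 2 were higher (12.5%) and 1 lower (6.25%), with Cfd (adipsin) at 2.45 and Scd, a desaturase, at −1.34. Of 37 chaperones and folding factors, 2 were higher (5.41%) and 1 lower (2.7%), both under the shares over all genes. Of 10 commonly used reference genes 2 were higher (20%), B2m (1.05) and Gusb. The array's own control probe sets, which were set aside, differed by 0.30 to 1.64 for beta-actin and by −0.63 to −0.37 for GAPDH.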
